A study of Homo sapiens with 30 samples.

Results

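LNCaP cells whose mTOR had been replaced by a nuclear-excluded form were compared with LNCaP cells carrying wild-type mTOR, both without androgen. The comparison held 6 of the 30 RNA-seq libraries of the study, 3 from each line, taken by their labelled rescue and treatment and compared across all genes. LNCaP is an established human prostate cancer line of luminal type that depends on androgen. Both lines carried an shRNA against mTOR and an inducible rescue, which was wild-type mTOR in the first (WT) and mTOR tagged with a nuclear export signal in the second (NES). Cells were kept for 48 h in RPMI with 2% charcoal-stripped serum, which removes steroids, and were then given 0.1% ethanol as vehicle for 24 h. An empty-vector line with the same shRNA (EV, 3 libraries under vehicle) is given beside some of the named genes and lists. The same WT and NES lines under 10 nM R1881, a synthetic androgen, supplied 6 further libraries. Each construct was represented by a single line, and the labels do not say whether a line was a clone, so an effect of the construct and a difference between lines cannot be told apart. The labels call the libraries triplicates without saying that they were separate cultures, so p-values measure the spread between these libraries, which may be technical.

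mTOR is the kinase of the complexes mTORC1 and mTORC2, which couple nutrients and growth factors to protein synthesis, metabolism and autophagy, mostly at lysosomes and other membranes of the cytoplasm. A part of mTOR is also found in the nucleus, and in prostate cancer cells nuclear mTOR has been linked to the transcription of androgen-driven genes such as KLK3. The comparison of NES with WT therefore asks which transcripts differ when the rescuing mTOR is kept out of the nucleus while no androgen is added.

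The vehicle libraries of WT held 26.5, 24.6 and 24.7 M counts and those of NES 26.8, 21.4 and 22.9 M. NES library 1 stood apart from the others of its group, with a root mean square deviation from the group means of 0.60 on the log2 scale against 0.38 to 0.42 for the other 5 libraries. Mitochondrially encoded genes took 5.65% to 8.57% of the counts in WT and 4.20% to 7.73% in NES. Most of 20 luminal markers were abundant. Highest per length among them were FOLH1 (mean 404 FPKM, fragments per kilobase of transcript, scaled to library size), STEAP1 (349) and STEAP2 (183). The summed level of the luminal list was 7048 to 7489 CPM (counts scaled to library size) in WT and 6956 to 8935 in NES. Not all its members were abundant: KRT19 (mean 0.949 CPM in WT and 4.33 in NES), PSCA (2.01 and 3.03) and TRPM8 were low. Of 14 basal markers KRT5 and KRT15 had 0 counts in all 6 libraries, as did 6 of 20 mesenchymal markers (CDH2, COL1A2, FAP, MMP2, THY1 and TWIST2) and 5 of 20 neuroendocrine markers (among them FOXA2, INSM1, NEUROD1 and SNAP25). Other members were expressed, such as basal ITGA6 (mean 103 CPM in WT and 69.5 in NES), mesenchymal FN1 (238 and 306) and VIM (25.3 and 14.2) and neuroendocrine EZH2 (37.00 and 30.5). Summed levels of these 3 lists overlapped between WT (109.6 to 133, 246 to 325 and 69.2 to 88.1 CPM) and NES (62.5 to 129, 279.8 to 393 and 74.9 to 151 CPM), and the highest neuroendocrine sum, in NES library 1, came with SYT4 at 72.2 CPM there against 15.3 and 8.89 in the other NES libraries.

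MTOR itself (ENSG00000198793) was measured at 2004, 1995 and 1521 CPM in WT and at 7593, 4152 and 4011 CPM in NES, against 27.1, 20.3 and 29.7 CPM in EV. All NES libraries lay above all WT libraries, and both rescue lines lay far above the empty vector. The NES line carried 2.85-fold more MTOR transcript than WT (log2 fold change 1.51 ± 0.33 standard error, edgeR quasi-likelihood test, Benjamini-Hochberg adjusted p = 0.0151). The call was lost without NES library 1 (1.18, adjusted p = 0.0811), without WT library 1 (adjusted p = 0.0548) and without WT library 3 (adjusted p = 0.107). With only the 6 libraries of WT and NES under vehicle in the fit it was lost too (1.53, edgeR adjusted p = 0.0550). Gene counts cannot tell reads of the construct from those of the cells' own gene. The lines therefore differed in the amount of MTOR transcript as well as in the tag, and which of these goes with the differences described here cannot be told apart.

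Of 18296 genes tested, 219 were called at an adjusted p under 0.05, which is 1.20% of them. Of these, 140 were higher (0.765%) and 79 lower (0.432%) in NES, and 190 were protein-coding. In 217 of the 219 the NES libraries did not overlap the WT libraries, a pattern seen in 11.7% of all genes tested. The median size of the called differences was 1.84 on the log2 scale and 189 of them passed 2-fold, while the median log2 fold change of all genes was 0.00, with quartiles of -0.20 and 0.26. WT and NES libraries of the same number deviated together, clearly only for those numbered 1. A fit with the library number as a replicate block called 441 genes (2.41%), 272 higher (1.49%) and 169 lower (0.924%). At an unadjusted p under 0.05 there were 1515 genes (8.28%), 5.04% higher and 3.24% lower. With only the 6 libraries in the fit 55 genes were called, and leaving out single libraries gave 119 (NES library 2), 126 (NES library 3), 136 (WT library 1), 150 (WT library 2), 137 (WT library 3) and 260 (NES library 1).

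The most regular difference lay in the protocadherin beta genes. Clustered protocadherins are adhesion proteins of the cell surface, each gene of the beta cluster has a promoter of its own, and in neurons cells use different combinations of them as identity labels. Of 16 PCDHB genes tested, 14 were lower in NES, against 0.432% of all genes, and none was higher (the family was chosen after its values were seen). Even the 2 uncalled members, PCDHB6 and PCDHB9, had all NES libraries below all WT libraries. The median log2 fold change of the 16 was -2.11, with a range from -3.19 to -1.10. The genes lie next to each other on chromosome 5 (hg38, 141094578 to 141249365).

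The promoters of these genes are shown because they share a sequence. RefSeq promoter windows (GRCh38.p14, 250 bases before to 50 after each start) were found for 14 PCDHB genes, and 13 of them held GGTGGCGCT, a string noticed in these promoters, searched on both strands. It stands in 176 of 35116 promoters of the same length (0.501%). Of the 13 genes, 12 were lower in NES. PCDHB1, whose promoter does not hold the string, did not pass the filter on low counts. The capitals mark the string in the promoters of 4 called genes and of PCDHB9, which was not called.
PCDHB2 (chr5:141094535-141094583, plus strand): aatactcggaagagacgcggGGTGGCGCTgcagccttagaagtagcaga
PCDHB5 (chr5:141135170-141135205, plus strand): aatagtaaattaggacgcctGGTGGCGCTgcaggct
PCDHB13 (chr5:141213856-141213904, plus strand): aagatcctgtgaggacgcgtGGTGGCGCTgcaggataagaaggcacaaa
PCDHB14 (chr5:141223254-141223302, plus strand): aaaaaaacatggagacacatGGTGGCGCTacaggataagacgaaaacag
PCDHB9 (chr5:141187065-141187113, plus strand): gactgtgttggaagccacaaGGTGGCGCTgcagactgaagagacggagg
The match is a description of these letters and not evidence of a bound site. The string began 60 bases before the RefSeq start in PCDHB2, 16 in PCDHB5, 43 in PCDHB13, 69 in PCDHB14 and 76 in PCDHB9.

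PCDHB5 (chromosome 5, 141135218 to 141138625), the most abundant member, was at 45.3, 45.6 and 46.7 CPM in WT and at 11.9, 12.1 and 11.9 CPM in NES. The libraries within each line were nearly level and the lines were far apart. The difference was -1.94 ± 0.20 on the log2 scale, or 3.83-fold (edgeR adjusted p = 1.00e-06). PCDHB2 was at 28.4, 29.3 and 33.1 CPM in WT and at 11.1, 9.10 and 6.25 CPM in NES (-1.78 ± 0.20, adjusted p = 4.47e-06). PCDHB14 stood at 10.2, 9.75 and 6.83 against 1.71, 2.21 and 1.66 CPM (-2.26 ± 0.37, adjusted p = 0.000917). PCDHB13 stood at 14.2, 11.5 and 12.4 against 5.01, 2.03 and 1.91 CPM (-2.08 ± 0.41, adjusted p = 0.00532), a call lost without NES library 2 or 3 (0.0623 and 0.0626). NES library 1 was the highest NES library for PCDHB2 and PCDHB13 and still lay below every WT library. The 2 uncalled members were low in counts or variable, PCDHB6 at 1.66, 1.72 and 1.69 against 0.929, 0.442 and 0.649 CPM (-1.31 ± 0.40, adjusted p = 0.138) and PCDHB9 at 1.33, 0.273 and 0.236 against 0.186, 0.132 and 0.162 CPM (-1.90 ± 0.91, adjusted p = 0.595).

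**Figure D1:**
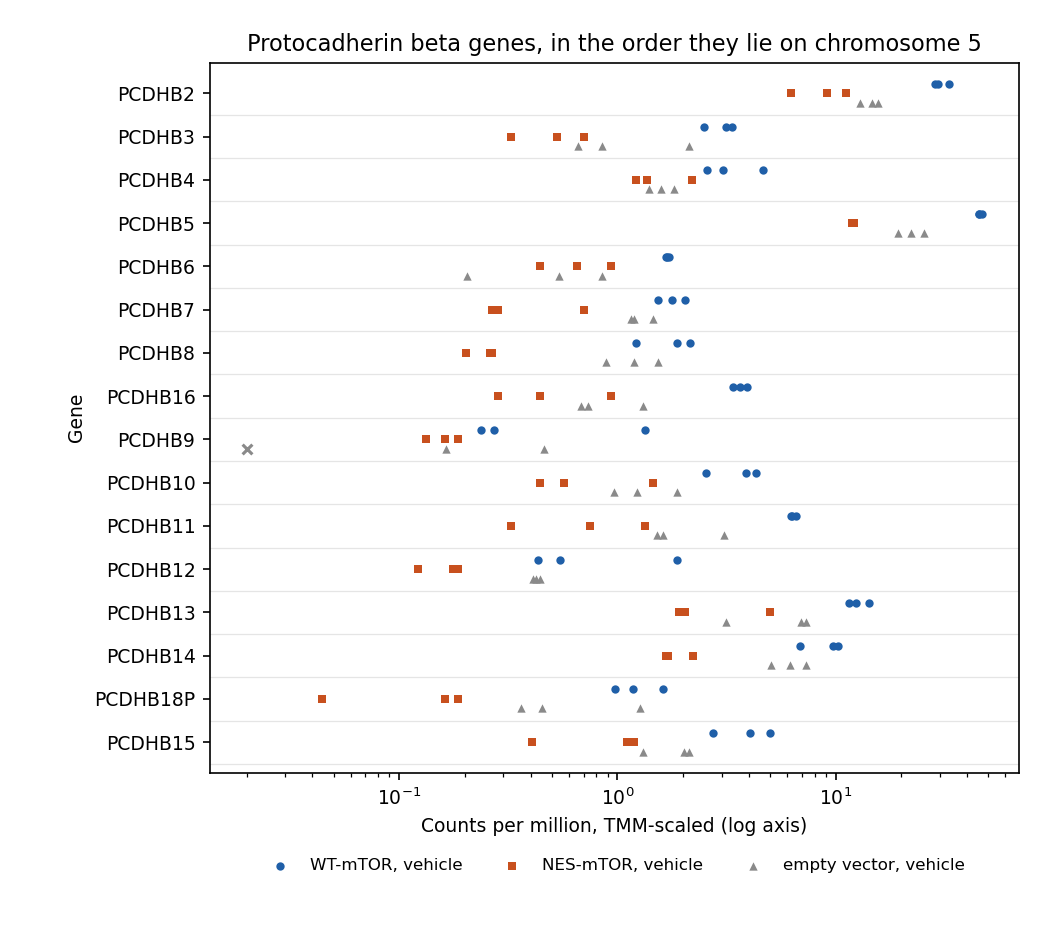
Level of the 16 tested protocadherin beta genes in each vehicle library of WT, NES and EV, in CPM on a log axis, in the order of the genes along chromosome 5; each point is 1 library and a cross at the left edge marks a library with 0 counts. In every gene the 3 NES points lie below the 3 WT points.

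Summed over the 16 genes, the PCDHB level was 133, 127 and 129.8 CPM in WT, 39.97, 31.4 and 26.5 CPM in NES and 71.4, 56.8 and 57.5 CPM in EV. The EV libraries lay between the lines without overlapping either. Of all genes tested, 6.71% differed between WT and EV (2.30% higher and 4.41% lower in WT) and 4.94% between NES and EV (1.87% and 3.07%). Against EV, PCDHB5 was higher in WT (1.04, adjusted p = 0.000662) and lower in NES (-0.89, adjusted p = 0.00459), and PCDHB2 followed the same order (1.07, adjusted p = 0.000509, and -0.70, adjusted p = 0.0319). The neighbouring clusters showed no called gene, 0 of 3 PCDHA and 0 of 20 PCDHG genes (medians -0.32 and -0.46). At the 1.20% of all genes called, lists this small can hold no call. Of the 20 PCDHG values 16 were below 0, while 50.1% of all genes were above 0. At an unadjusted edgeR p under 0.05, 4 PCDHG genes were lower (3.24% of all genes). Without overlap between the lines 6 were lower and 1 higher (11.7% of all genes in either direction). PCDHGB6 (-0.90 ± 0.24, edgeR adjusted p = 0.0561) passed with the replicate block (adjusted p = 0.0204). Of the 4 other genes tested within 300000 bases, none was called by edgeR. They were TAF7 (-0.16, adjusted p = 0.973), DIAPH1 (0.20, adjusted p = 0.864), AC005618.1 (-0.49, adjusted p = 0.958) and AC244517.1 (-1.77 ± 0.76, adjusted p = 0.477). AC244517.1, a long noncoding RNA, lies between PCDHB3 and PCDHB4, and its value was within the range of the PCDHB genes. The count of 14 lower PCDHB genes became 8 without NES library 2, 7 without NES library 3 and 5 with only the 6 libraries in the fit, and PCDHB members share long stretches of sequence, so that reads may have been split between them.

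Androgen-driven genes formed the next group. The gene lists here and below were chosen with earlier results of these data known, so their counts are a description. Androgens act on transcription through response elements near their target genes, and charcoal-stripped serum leaves little hormone. Of 63 androgen-induced genes tested, 8 were higher in NES without added androgen, against 0.765% of all genes, and none was lower (KLK2, ACPP, TRPM8, KCNN2, BMPR1B, KLK3, CENPN and PTGER4), with a median of 0.33 and 48 values above 0. The count was 13 with the replicate block (1.49% of all genes), whose added genes included ADAMTS1, TMPRSS2, TRPV6 and TTC39A. It was 5 without WT library 1 or without WT library 3 and 3 with only the 6 libraries in the fit. Of 18 androgen-repressed genes, 4 were lower, against 0.432% of all genes, and none was higher (TMEFF2, OPRK1, UGT2B10 and UGT2B17), with a median of -1.0. With the block 7 were lower (0.924% of all genes), and without NES library 2 or without NES library 3 the count was 2. Summed over the androgen-induced list, the level was 3895, 4163 and 3642 CPM in WT, 5495, 5419 and 4992 in NES and 5696, 5712 and 5103 in EV. For this sum EV overlapped NES and lay above WT. The androgen-repressed sum was 4739, 4706 and 4412 CPM in WT, 3724, 2620.4 and 2627 in NES and lowest in EV, at 1841, 1312 and 1645.

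KLK2 and KLK3 encode secreted kallikrein proteases, the second of them prostate-specific antigen, and lie close together on chromosome 19. Their promoter windows are shown because both hold an androgen response element by sequence, the letters GNACA and GTNCT with 4 free bases between them, shown in capitals and searched on both strands of the same RefSeq windows (GRCh38.p14).
KLK2 (chr19:50873224-50873317, plus strand): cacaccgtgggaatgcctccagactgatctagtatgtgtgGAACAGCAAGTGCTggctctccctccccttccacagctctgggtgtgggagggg
KLK3 (chr19:50854706-50854799, plus strand): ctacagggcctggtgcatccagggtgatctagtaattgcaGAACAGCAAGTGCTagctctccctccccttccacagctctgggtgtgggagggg
The string began 175 bases before the start of KLK2 and 169 before that of KLK3. It stood in 246 of 35116 promoters (0.701%), in 2 of the 49 androgen-induced genes with a window and in 0 of 14 androgen-repressed genes, and the other genes' elements may lie outside these 300 bases.

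KLK2 was at 7.38, 7.33 and 6.44 CPM in WT and at 47.95, 53.7 and 41.02 CPM in NES. The NES line was 6.74-fold higher (log2 2.75 ± 0.26, edgeR adjusted p = 1.98e-07), and EV, at 78.2, 119 and 59.9 CPM, was higher still. KLK3 was at 417, 589 and 442 CPM in WT and at 1201, 1712 and 1254 CPM in NES, a 2.88-fold difference (1.53 ± 0.32, adjusted p = 0.00978). Unlike KLK2, KLK3 in EV (453, 670.0 and 227 CPM) lay around the WT level. The KLK3 call was lost without NES library 2 (adjusted p = 0.0651), WT library 1 (adjusted p = 0.0761) or WT library 3 (adjusted p = 0.0661). KLK2 and KLK3 are close paralogs, and reads shared between them may have been counted for either.

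ACPP, which encodes prostatic acid phosphatase, stood at 56.9, 53.8 and 43.9 CPM in WT and at 231, 153 and 177 CPM in NES (1.86 ± 0.23, adjusted p = 1.87e-05). TRPM8, a cold-sensing cation channel, rose from 1.73, 0.351 and 0.314 to 7.50, 4.37 and 4.58 CPM (2.76 ± 0.43, adjusted p = 0.000398). KCNN2, a calcium-activated potassium channel, rose from 37.3, 29.5 and 24.1 to 63.8, 53.7 and 66.4 CPM (1.02 ± 0.17, adjusted p = 0.00125). The calls of TRPM8 and KCNN2 were lost with only the 6 libraries in the fit (edgeR adjusted p = 0.143 and 0.0981). Classical targets were not all called. TMPRSS2, a membrane serine protease, was at 46.4, 61.2 and 35.9 CPM in WT and 78.3, 95.6 and 69.1 CPM in NES (0.76 ± 0.20, adjusted p = 0.0564, and 0.00452 with the replicate block). FKBP5, a co-chaperone of HSP90, was at 64.3, 63.3 and 63.4 CPM in WT and 81.7, 58.5 and 66.4 CPM in NES (0.11 ± 0.23, adjusted p = 0.979).

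Among the androgen-repressed genes, TMEFF2, a transmembrane protein of prostate and brain, fell from 227, 264 and 235 to 104, 78.04 and 53.9 CPM (-1.62 ± 0.18, edgeR adjusted p = 2.76e-06). OPRK1, the kappa opioid receptor, fell from 291, 284 and 265 to 109, 70.1 and 65.3 CPM (-1.78 ± 0.31, adjusted p = 0.00194). The UGT2B enzymes attach glucuronic acid to steroids, androgens among them, and all 7 genes tested were below 0 (median -1.52). UGT2B17 fell from 1061, 1137 and 1005 to 697, 386 and 387 CPM (-1.12 ± 0.26, adjusted p = 0.0266) and UGT2B10 from 11.2, 8.15 and 10.3 to 2.04, 1.90 and 1.87 CPM (-2.35 ± 0.49, adjusted p = 0.0101). UGT2B15 was at 1212, 903 and 827 CPM in WT and 547, 221 and 255 CPM in NES (-1.52 ± 0.47, adjusted p = 0.143, and 0.000669 with the block). With the block 5 UGT2B genes were lower (0.924% of all genes), and without NES library 2 or without NES library 3 none was called. The UGT2B17 call was also lost without any 1 WT library (adjusted p from 0.0682 to 0.209 over these 5 runs). These genes are near copies of each other, so their separate counts are uncertain. Summed over the 7 UGT2B genes, the level was 2309.5, 2068 and 1863 CPM in WT, 1256, 613 and 652 in NES and 387, 189 and 286 in EV.

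**Figure D2:**
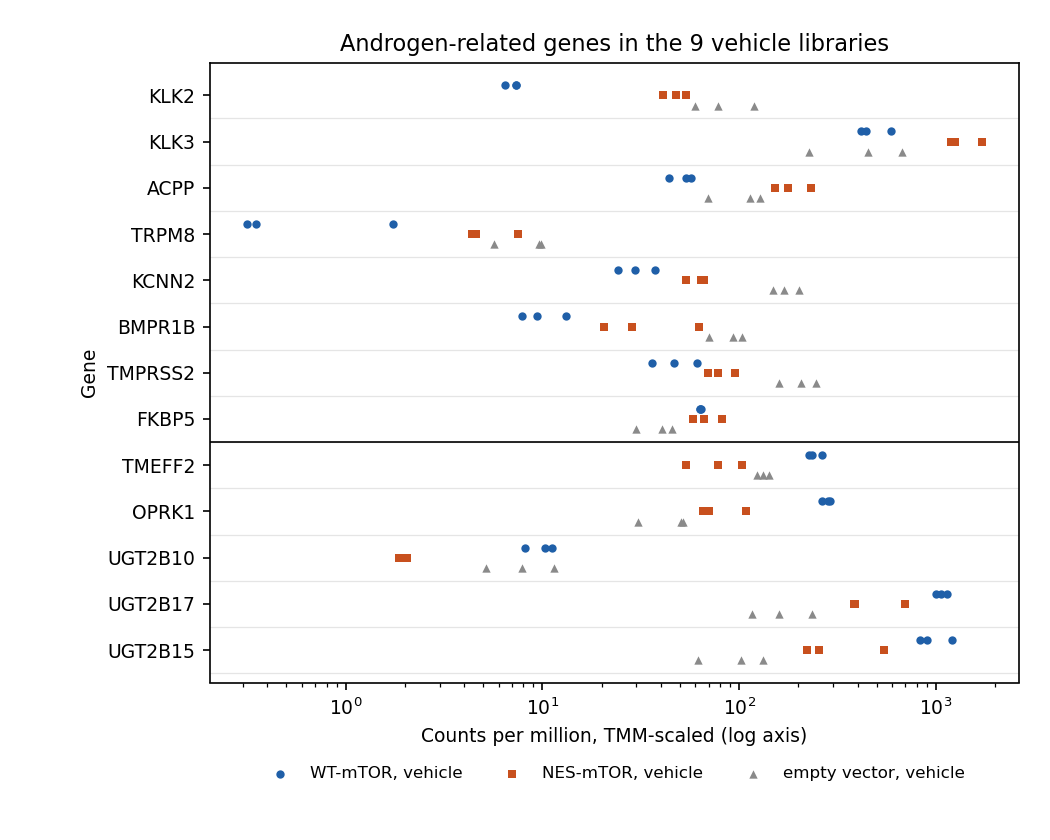
Level of 13 androgen-related genes in the 9 vehicle libraries, in CPM on a log axis, each point 1 library; genes above the line are androgen-induced, those below it androgen-repressed. KLK2, KLK3 and ACPP lie to the right in NES, TMEFF2, OPRK1 and the UGT2B genes to the left, and FKBP5 overlaps.

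With protein-coding genes of at least 5 CPM on average and no overlap between the lines considered, the largest increase in NES was that of NOVA1, a neuronal regulator of splicing. NOVA1 (chromosome 14, 26443093 to 26597754) was at 1.14, 1.40 and 0.589 CPM in WT and at 42.2, 25.6 and 21.3 CPM in NES, 28.3-fold higher (4.82 ± 0.36, edgeR adjusted p = 2.21e-09). The EV libraries overlapped those of NES (NES against EV -0.40, adjusted p = 0.679). CLU (chromosome 8, 27596917 to 27615031), which encodes the secreted chaperone clusterin, was at 5.05, 5.03 and 4.32 CPM in WT and 53.2, 73.4 and 84.3 CPM in NES (3.87 ± 0.27, 14.6-fold, adjusted p = 9.43e-10). For CLU the NES line lay above EV too (15.5, 15.3 and 10.5 CPM). TMEM45B, a transmembrane protein, rose from 7.30, 4.95 and 7.03 to 64.8, 57.9 and 68.3 CPM (3.31 ± 0.28, adjusted p = 2.11e-08).

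Other genes named among the increases differed in function. HSPB8, a small heat shock protein, was higher by 2.50 ± 0.29, the mono-ADP-ribosyltransferase PARP10 by 2.91 ± 0.44, the neuronal microtubule protein MAP2 by 2.52 ± 0.32 and CAMK2N1, an inhibitor of calcium/calmodulin-dependent kinase II, by 2.12 ± 0.25. PLP2 was higher by 2.30 ± 0.17, SLC4A4, a sodium bicarbonate cotransporter, by 2.23 ± 0.31, HENMT1, an RNA methyltransferase of the piRNA pathway, by 2.18 ± 0.28, CRIP2 by 1.98 ± 0.40 and the receptor BMPR1B by 1.87 ± 0.36. PLP2 in EV, at 5.69 to 6.60 CPM, overlapped WT (WT against EV -0.02, adjusted p = 0.977). The adjusted p of these 9 genes in NES against WT ran from 1.66e-09 (PLP2) to 0.00781 (CRIP2), and the CRIP2 call was lost without NES library 2 (0.0530) or WT library 2 (0.0574).

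With the same limits on level and overlap, CNTN5 and EPHA3 had the largest decreases. CNTN5 (chromosome 11, 99020953 to 100358885), a neuronal contactin, fell from 34.6, 33.3 and 38.7 to 1.52, 0.397 and 0.446 CPM (-5.46 ± 0.79, 44.1-fold, edgeR adjusted p = 0.000181). EPHA3 (chromosome 3, 89107524 to 89482134), an ephrin receptor kinase, fell from 553, 466 and 448 to 82.1, 30.7 and 30.9 CPM (-3.35 ± 0.50, 10.2-fold, adjusted p = 0.000238). In both genes EV was lower still, at 0 to 0.346 CPM for CNTN5 and at 3.82 to 12.6 CPM for EPHA3. RALYL, an RNA-binding protein, fell from 9.04, 13.7 and 18.8 to 2.19, 1.90 and 1.74 CPM (-2.83 ± 0.25, adjusted p = 5.79e-08) and here EV, at 16.7 to 29.99 CPM, overlapped WT and lay above NES. ADGRL2, an adhesion receptor of the latrophilin group, was lower by -1.85 ± 0.44 (adjusted p = 0.0295), a call lost in each of the 5 runs that left out 1 library other than NES library 1 (adjusted p from 0.0765 to 0.189).

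Of the other decreases under the same rule, GSTA1, a glutathione transferase, was at 36.04, 34.97 and 38.04 CPM in WT and 6.57, 10.5 and 7.63 CPM in NES (-2.15 ± 0.38, adjusted p = 0.00207), and BCAT1, the cytosolic enzyme that removes the amino group of branched-chain amino acids, at 68.5, 42.8 and 42.4 against 23.9, 8.26 and 9.17 CPM (-1.89 ± 0.38, adjusted p = 0.00626). The zinc finger gene ZNF711 (-2.28 ± 0.38), the prostate olfactory receptor gene OR51E2 (-1.69 ± 0.32) and the splicing regulator MBNL2 (-1.68 ± 0.42) were lower too, with adjusted p of 0.00125, 0.00385 and 0.0450. The BCAT1 call was lost without NES library 2 (adjusted p = 0.0671), NES library 3 (0.0684) or WT library 1 (0.0548), and that of MBNL2 in each of the 5 runs without a library other than NES library 1 (0.0869 to 0.286).

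**Figure D3:**
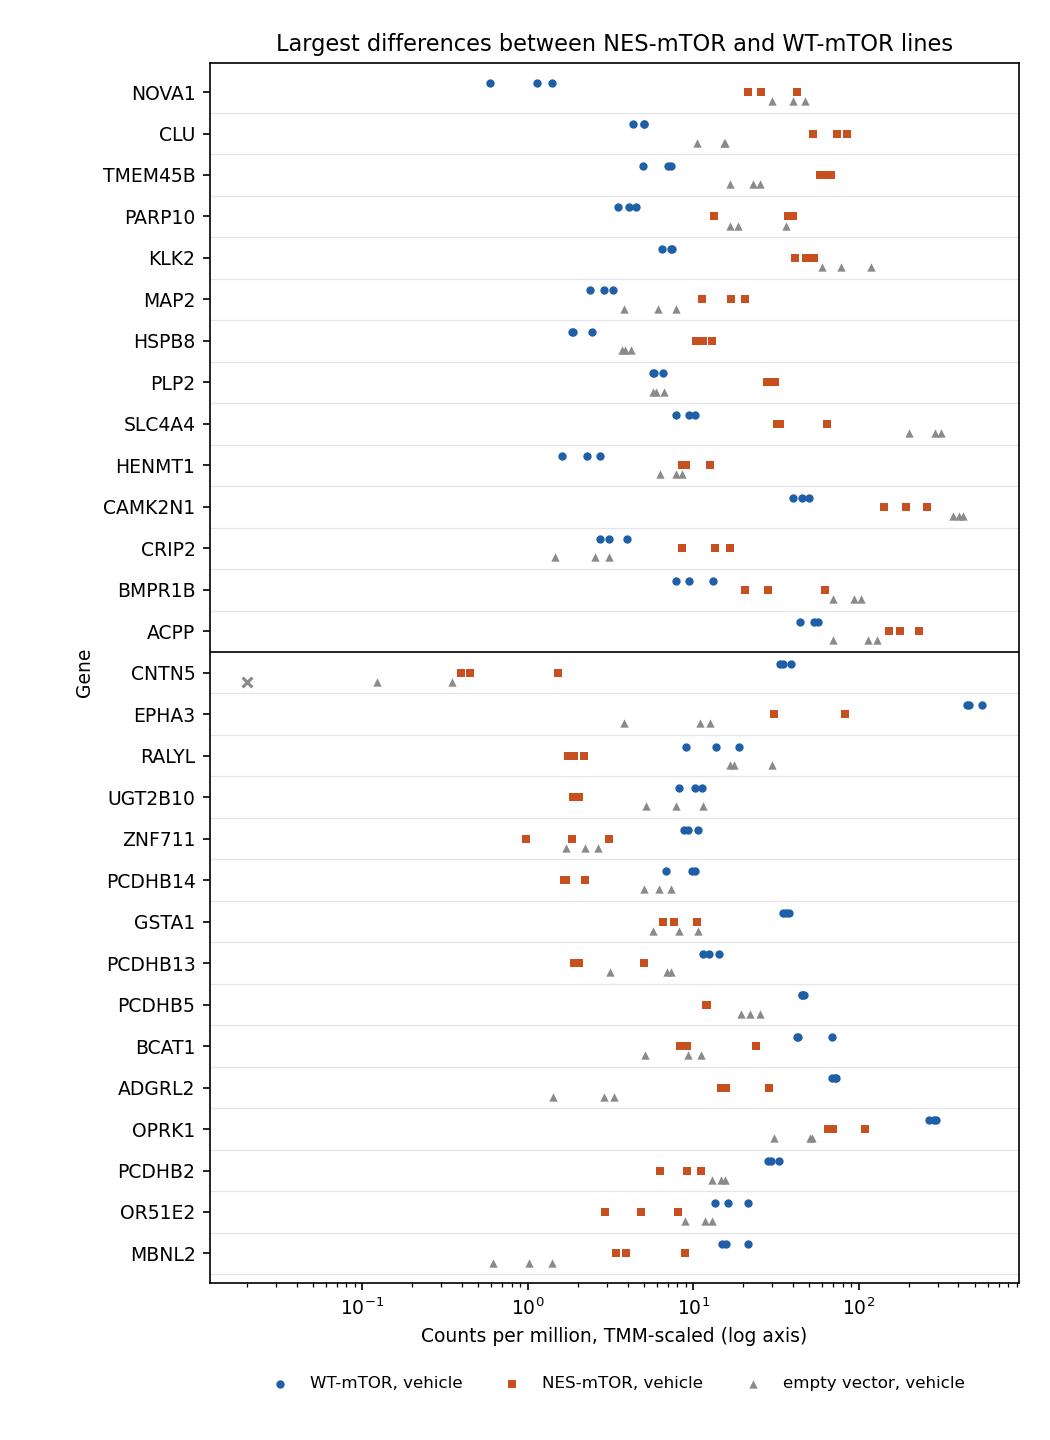
Level in each vehicle library of 14 of the 15 highest (above the line) and the 15 lowest (below it) called protein-coding genes with a mean of at least 5 CPM and no overlap between WT and NES, in CPM on a log axis; each point is 1 library of WT, NES or EV and the cross marks a library with 0 counts. EV points lie with NES for NOVA1 and near WT for PLP2 and RALYL.

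The position of EV relative to the lines was counted over the 99 called protein-coding genes that met this rule. Of the 57 higher in NES, the EV mean lay between the means of WT and NES in 23, beyond NES in 26 and on the far side of WT in 8. Of the 42 lower in NES, it lay between in 23, beyond NES in 14 and on the far side of WT in 5. These genes were chosen on the WT and NES values, so the counts are a description.

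Of the 219 called genes 190 were protein-coding and 29 were not, while 13489 of the 18296 genes tested were protein-coding. PCAT1, a prostate cancer long noncoding RNA on chromosome 8, rose from 15.05, 12.9 and 11.5 to 113, 102 and 106 CPM (3.03 ± 0.21, edgeR adjusted p = 9.43e-10). It was the single gene called among 15 tested prostate cancer noncoding RNAs, against 1.20% of all genes called in either direction. The antisense genes AC069228.1 (1.63 ± 0.36), AC063960.2 (1.02 ± 0.24) and FAM201A (0.84 ± 0.21) and the sense intronic AC092718.4 (1.46 ± 0.32) were higher and the pseudogene PPIAP29 (-1.52 ± 0.34) was lower, with adjusted p from 0.0170 to 0.0382. Without 1 library these 5 calls were lost in 3 to 6 of 6 runs. The AC063960.2 call was lost without any of the 6 (adjusted p from 0.0551 to 0.167) and that of FAM201A without NES library 2 or 3 or WT library 1 or 3 (0.141 to 0.224). AC092718.4 was not called without NES library 2 or 3 or WT library 2 or 3 (0.0530 to 0.118), AC069228.1 without NES library 1 or WT library 2 or 3 (0.104 to 0.113) and PPIAP29 without NES library 1 or 3 or WT library 2 or 3 (0.0789 to 0.117). The strand setting of the counts is not given in the sources used here, so reads of antisense and intronic genes cannot be told from those of their partners.

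Lists of adhesion and channel genes, also chosen with earlier results of these data known, held calls in both directions. Of 42 synaptic and axon guidance adhesion genes, 5 were lower (CNTN5, EPHA3, PCDH17, CNTN4 and EFNB2) and 2 higher (TENM1 and NRP1), with a median of -0.43, against 0.432% of all genes lower and 0.765% higher. The block gave 11 lower (0.924% of all genes) and 4 higher (1.49%). The 5 lower calls became 2 without NES library 2 or without NES library 3 and 3 without any 1 WT library. With only the 6 libraries in the fit 3 were lower and none higher, and the 2 higher calls became 1 without NES library 1. TENM1, a teneurin, had 0 counts in WT and 0.780, 0.618 and 0.730 CPM in NES, from 53 counts in all. That was at least 18.6-fold higher, set against 3 counts in the whole group as the floor. PCDH17, a protocadherin outside the cluster, went the other way, from 1.14, 0.936 and 0.824 CPM to 0 counts, at least 24.0-fold lower on the same floor. NRP1, a receptor for semaphorins and VEGF, rose from 206, 235 and 200.5 to 614, 415 and 344 CPM (1.10 ± 0.22, edgeR adjusted p = 0.00774), a call lost without NES library 1 (adjusted p = 0.0508). The PCDH17 call was lost without NES library 2 or 3 (0.0508 and 0.0524), and the TENM1 call with only the 6 libraries in the fit (edgeR adjusted p = 0.0648). Of 26 ion channel and neurotransmitter receptor genes, 2 were higher (TRPM8 and KCNN2) and 3 lower (OPRK1, KCNJ3 and CACNB2), against 0.765% and 0.432% of all genes. With the block 3 were higher and 5 lower (1.49% and 0.924% of all genes), and with only the 6 libraries in the fit none was higher and 1 was lower. The call of CACNB2, a calcium channel subunit (-1.38 ± 0.34, adjusted p = 0.0376), was lost without any 1 of the 6 libraries (adjusted p from 0.0749 to 0.190). KCNJ3, a potassium channel, was at 2.10, 3.66 and 3.85 CPM in WT, 0.743, 0.0883 and 0.284 CPM in NES and 70.9 to 108 CPM in EV.

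Of 11 tested MAGEA and MAGEC genes, cancer-testis genes of the X chromosome chosen after their values were seen, 3 were higher, against 0.765% of all genes. MAGEA1 rose from 5.39, 4.60 and 4.63 to 15.7, 12.7 and 15.5 CPM (1.59 ± 0.18, edgeR adjusted p = 6.19e-06), MAGEC2 by 1.17 ± 0.22 (adjusted p = 0.00451) and MAGEA4 by 1.20 ± 0.30 (adjusted p = 0.0386). The abundant MAGEA3, at 164, 157 and 166 against 177, 175 and 171 CPM (0.10 ± 0.11, adjusted p = 0.972), did not pass, and MAGEA1 in EV was higher still at 25.02 to 30.97 CPM. Members of this family resemble each other closely, so their counts are uncertain.

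Lists tied to the canonical work of mTOR are given next, and 1.20% of all genes tested were called in either direction. Of 21 genes of the mTOR complexes and their lysosomal anchors, MTOR alone was called, and RPTOR (0.17 ± 0.18, edgeR adjusted p = 0.972) and RICTOR (0.03 ± 0.33, adjusted p = 0.998), the scaffolds of mTORC1 and mTORC2, did not pass. RRAGA, a Rag GTPase that brings mTORC1 to the lysosome, passed with the block (0.44 ± 0.13, adjusted p = 0.110, and 0.0419 with the block). No gene was called among 57 ribosomal proteins (median -0.06), 40 ribosome biogenesis genes (0.00), 36 translation factors (-0.01), 24 cholesterol synthesis genes (0.00), 22 fatty acid synthesis genes (0.07), 25 glycolysis genes (0.19), 40 nuclear respiratory chain genes (0.11) or 24 nucleotide synthesis genes (0.04), and at an unadjusted p under 0.05 these lists held 1, 0, 1, 0, 3, 2, 0 and 0 genes. Of 46 ATF4 and amino acid supply genes none was called and 37 were below 0 (median -0.19). At an unadjusted p under 0.05, 7 were lower (3.24% of all genes), and CTH and MTHFD2 were lower with the block (0.924% of all genes). Of 46 lysosome and autophagy genes 1 was lower, MAP1LC3A, an LC3 protein of autophagosomes, which fell from 5.24, 6.16 and 7.03 to 1.26, 2.25 and 1.66 CPM (-1.83 ± 0.43, adjusted p = 0.0287). Of 27 FOXO and growth factor feedback genes, the transcription factor genes BCL6 (0.58 ± 0.14, adjusted p = 0.0362) and KLF7 (1.11 ± 0.27, adjusted p = 0.0382) were higher. The calls of MAP1LC3A and KLF7 were lost without any 1 of the 6 libraries (adjusted p from 0.0581 to 0.145 and from 0.0537 to 0.231), and that of BCL6 without NES library 2 or 3 or WT library 1 or 3 (0.130 to 0.182).

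Mitotic genes all had higher means in NES, and none passed the test. All 34 G2/M and mitosis genes had a log2 fold change above 0 (median 0.70, from 0.20 to 1.14), against 50.1% of all genes tested. None was called, 13 were higher at an unadjusted p under 0.05 (5.04% of all genes were higher at that p), and 11 were higher with the replicate block, against 1.49% of all genes. The 11 were KIF20A, AURKA, PTTG1, BIRC5, CCNB1, NUSAP1, KIF2C, UBE2C, PLK1, CDC20 and CENPA. DESeq2 called 3 of the 34 higher, among the 242 genes it called higher in all. Summed over the list, the level was 958, 712 and 1007 CPM in WT and 1504, 1014 and 1637 CPM in NES, and the lowest NES library lay just above the highest WT library. In bulk RNA a larger share of cells in mitosis and more transcript per cell cannot be told apart. CCNB1, the cyclin that drives entry into mitosis, was at 75.8, 50.6 and 72.9 CPM in WT and 117, 82.3 and 125 CPM in NES (0.70 ± 0.23, edgeR adjusted p = 0.201, and 0.0233 with the block). For 39 G1/S and DNA replication genes the median was 0.18 with no call, and 1 gene was lower at an unadjusted p under 0.05.

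**Figure D4:**
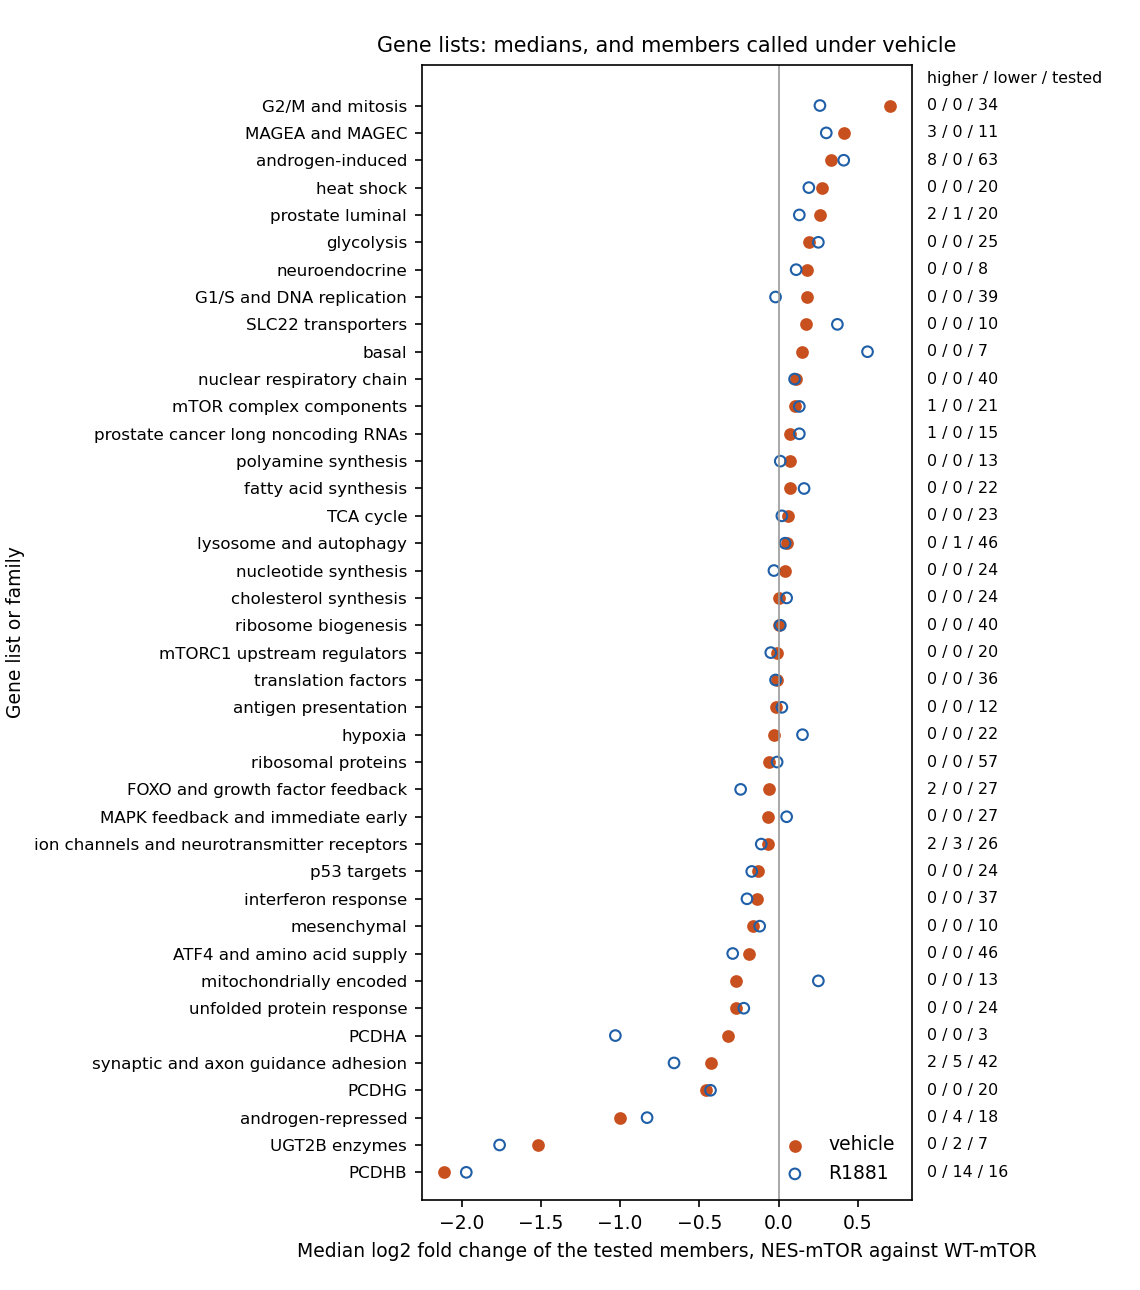
Median log2 fold change of NES against WT over the tested members of each gene list or family, under vehicle (filled) and under R1881 (open), with the number of members called higher, called lower and tested under vehicle at the right. Under vehicle PCDHB, UGT2B and androgen-repressed genes have the lowest medians and G2/M genes the highest, while under R1881 basal genes have the highest and PCDHA lies below the androgen-repressed genes; lists of translation, lipid and ribosome genes sit near 0.

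The same lines under R1881 gave a second, separate set of 6 libraries. There 266 genes were called (1.45%), 150 higher (0.820%) and the rest lower (0.634%). Of the 219 genes called under vehicle, 129 were called in the same direction under R1881 (79 higher and 50 lower), which is 58.9% of the vehicle calls and 48.5% of the R1881 calls. Of the 219, 215 had the same sign with androgen (98.2%, against 73.1% of all genes tested). The 4 with the opposite sign were low in counts: ANG, ACSS3, CXCR4 and PRMT5-AS1. ANG, which encodes the ribonuclease angiogenin, was at 2.80, 2.61 and 1.96 CPM in WT and 0.817, 0.707 and 1.26 CPM in NES under vehicle (-1.40 ± 0.28, edgeR adjusted p = 0.00774), and under R1881 at 1.59, 1.29 and 1.53 against 1.93, 1.62 and 1.48 CPM (0.19, adjusted p = 0.898).

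PCDHB5 was at 45.9, 46.6 and 48.9 CPM in WT and 15.1, 9.42 and 9.55 CPM in NES with R1881 (-2.05 ± 0.20, edgeR adjusted p = 3.37e-07), nearly the vehicle values. Of the 16 PCDHB genes, 12 were lower with R1881 (median -1.97), against 0.634% of all genes. KLK2 was more abundant with the hormone in both lines and the lines stayed apart, at 170.0, 167 and 179 CPM in WT and 679.6, 761 and 760.4 CPM in NES (2.09, adjusted p = 9.53e-06). KLK3 with R1881 was at 3165, 4261 and 3924 CPM in WT and 4313, 5881 and 5436 CPM in NES, where the difference did not pass (0.46 ± 0.31, adjusted p = 0.790). NOVA1 was less abundant with R1881 in both lines, at 0.272, 0.129 and 0.107 CPM in WT and 12.8, 12.2 and 8.08 CPM in NES (5.99, adjusted p = 1.35e-09).

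Whether the NES difference itself changed with androgen was tested as the vehicle difference minus the R1881 difference. No gene was called by edgeR, and 274 genes (1.50%) had an unadjusted p under 0.05. DESeq2 called none either, and limma on log2(FPKM + 1) called 2. The edgeR share is below 0.05 of all genes, the share that such p-values give where nothing differs. The 0 calls therefore do not show that the NES difference was the same with and without androgen. The smaller KLK3 difference with R1881 had an unadjusted p of 0.0230 (adjusted p = 1.0). The G2/M median was 0.26 with R1881 against 0.70 without, with no member called in either.

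**Figure D5:**
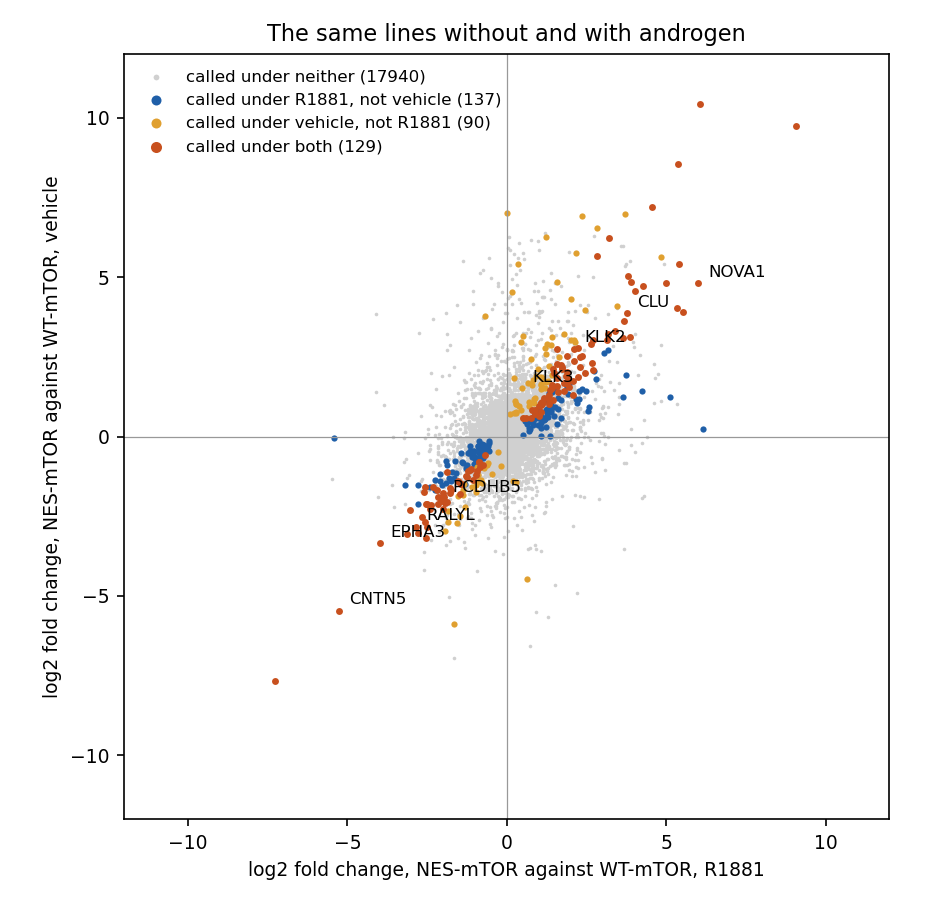
Log2 fold change of NES against WT for each of the 18296 genes tested, under R1881 (horizontal axis) and vehicle (vertical axis); colours mark genes called under both (129), vehicle and not R1881 (90), R1881 and not vehicle (137) or neither. Called genes lie along the diagonal, from CNTN5 and EPHA3 at the lower left to NOVA1 at the upper right; values far from 0 near the edges belong to genes with few counts in a group.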

How the data were processed

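Total RNA of LNCaP cells was read in pairs of 150 bases each, per the labels' protocols. The authors deposited raw read counts and FPKM values for 58735 genes in 30 libraries, per the file headers. HISAT2 2.0.5, featureCounts 1.5.0-p3 and hg38 are named in the submitters' processing notes, without roles. FPKM served for levels per length and for the limma alternatives. Counts were fitted in R 4.3.3 with edgeR 4.0.16 (filterByExpr, TMM, glmQLFit, glmQLFTest, two-sided) over all 30 libraries with 1 mean per group. The 3 tests were NES against WT under vehicle, the same under R1881, and their difference. WT and NES against EV are given for some named genes and as shares of all genes called, and share libraries with the others. Called means an adjusted p under 0.05 (Benjamini-Hochberg) over the 18296 genes tested. 40439 genes were not tested. CPM is scaled by TMM. Library totals ran from 21.4 to 61.8 M, and counting limits cover counting error only. On simulated counts of 18296 genes for the vehicle comparison, 57% of changes of 1 and 97% of changes of 2 on the log2 scale were called. The changes were placed only in genes of at least 5 CPM, so these shares do not cover genes below that level. Each simulated library was drawn separately, without an outlying library or an effect of the replicate number.

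WT and NES vehicle libraries of the same number deviated together over all genes (r = 0.28, 0.14 and 0.13, all above 0.1), so the replicate number was read as pairing them. Vehicle pairs of different number ran from -0.24 to 0.10. The highest, WT library 3 with NES library 2, was close to the values of the same-number pairs 2 and 3. The pairing is thus clear only for the libraries numbered 1. Under R1881 one value missed 0.1, and the block is used there only as an alternative. There WT library 3 and NES library 2, of different number, had r = 0.26. The block fit gave each replicate number an effect shared by all 30 libraries, those under R1881 and of the other lines included. Pairing was not checked outside WT and NES. The pairing rests on these data, since the labels give only the number.

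Named were MTOR, KLK3, KLK2, TMPRSS2 and FKBP5, the 15 highest and 15 lowest called protein-coding genes with a mean of at least 5 CPM and no overlap, up to 5 of other biotypes in each direction by the same rule, and up to 5 called members of each of 36 gene lists. Other named genes, the protocadherin and MAGE families and the promoter strings were chosen after their values were seen. A few genes that the rule names are not reported here. The members and lists were chosen with earlier results of these data known. Beside the lists named in the results, the hypoxia, p53, interferon, antigen presentation, polyamine, TCA cycle, unfolded protein response, heat shock, SLC22, mTORC1 upstream, MAPK, basal, mesenchymal, neuroendocrine and mitochondrially encoded lists had no member called under vehicle, and the luminal list had TRPM8 and KRT19 higher and TMEFF2 lower. Alternatives were DESeq2 1.42.0, limma 3.58.1, other size factors and filters, the block, a fit of the compared groups alone, each library left out, and, added after the data were seen, the libraries numbered 1 left out.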

Additional observations from a re-analysis of the deposited data

How the results depend on the processing

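The 219 calls under vehicle (140 higher, 79 lower) became 55 (37 and 18) with only the compared groups in the fit, 366 (242 and 124) with DESeq2, 376 (271 higher) with no filter on low counts and 441 (272 and 169) with the replicate block, and 119 to 260 (81 to 168 higher, 33 to 92 lower) when single libraries were left out. Without the libraries numbered 1, a setting chosen after seeing the data, 168 were called (107 and 61). The 266 calls under R1881 became 446 (253 and 193) with DESeq2, 240 higher with no filter, 589 (332 and 257) with the replicate block, and 137 to 181 (80 to 106 higher, 44 to 79 lower) with single libraries left out. R1881 libraries of the same number deviated together less evenly (r = 0.37, 0.06 and 0.20), so they share only a number. The difference between treatments gave 0 calls except 3 with no filter and 2 with limma on log2(FPKM + 1). Of 51 called named genes, 30 were called in every run without 1 library, 28 with only the compared groups in the fit and 51 with the replicate block, and none reversed. The fit of the compared groups lost the higher calls of MTOR, BMPR1B, TRPM8, KCNN2, KRT19, TENM1, NRP1, BCL6, KLF7, FAM201A, AC063960.2, AC092718.4 and AC069228.1. The lower calls lost there were ZNF711, PCDHB13, BCAT1, OR51E2, MBNL2, UGT2B17, KCNJ3, CACNB2, MAP1LC3A and PPIAP29. With limma on log2(FPKM + 1) those of TRPM8, KRT19, TENM1 and KCNJ3 were lost. The block changed no call of a named gene beyond those given in the results. Calls of the androgen-induced list ran from 3 to 13 over the alternatives. The cause of these changes was not tested. Genes with fewer than 5 CPM made up 111 of the 219 calls, and smaller differences among the genes not called may have gone undetected with 3 libraries a group.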
